A study of Mus musculus with 4 samples.

Results

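The genes described here are 9 markers of type 3 and type 1 lymphocytes, measured in group 2 innate lymphoid cells (ILC2s) of the mouse lung. They are the type 3 cytokine genes Il17a, Il17f and Il22, the receptor gene Il23r, the type 1 regulator Tbx21 and cytokine Ifng, and the cytotoxic lymphocyte genes Gzmb, Nkg7 and Klrd1. They were found by gene symbol among the 55401 gene models of the deposited tables, and each of the 9 matched 1 row. The members were chosen by their FPKM in these same 4 libraries, so those levels are given as a description and carry no test. Of the 9, 5 had a mean of at least 1 FPKM and the other 4 were listed at 0 throughout.

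ILC2s were purified from the lungs of C57BL/6 mice and cultured for 6 h, either with IL-33, an epithelial alarm cytokine that activates them, or with IL-33 and Ang II (angiotensin II), the active hormone of the renin-angiotensin system. All libraries therefore come from cells that received IL-33, and no library of unstimulated cells was used here. Each group has 2 libraries, each made from 500 cells by cDNA amplification, and the labels give neither the sorting gate nor the age of the animals, nor whether libraries came from separate mice. Values are FPKM, which scale fragments to transcript length and to the library total. Levels of different genes can be set side by side only roughly, since amplification can lose or multiply single transcripts.

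Innate lymphoid cells are sorted into types by the cytokines they make. Type 2 cells depend on GATA3 and make IL-5 and IL-13, type 3 cells make IL-17 and IL-22 under IL-23, and type 1 cells depend on T-bet (the product of Tbx21) and make interferon gamma under IL-12 and IL-18. These fates are not fixed: ILC2s that make IL-17 and ILC2s that turn on T-bet and interferon gamma have both been described, which is known as plasticity. Natural killer (NK) cells share the type 1 programme and add a killing machinery of granzymes and perforin.

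Il17a and Il17f are neighbours in the genome, are read in opposite directions, and were the members with values above 1 FPKM with Ang II but not with IL-33 alone. The bases upstream of their RefSeq start sites are shown because both genes had the same pattern across libraries. Letters come from RefSeq (GRCm38.p6), run 5′ to 3′ along the strand of each gene and end just before its RefSeq start. Capitals mark matches to AGGTCA, a core bound by nuclear receptors, or to TGANTCA, the AP-1 site, on either strand. The Il17a window is chr1:20730655-20730904 (plus strand), and that of Il17f is chr1:20784271-20784520 (minus strand). GENCODE, which gives the gene positions below, places Il17f at 20777146 to 20790617. By that annotation the Il17f window lies inside the gene, not upstream of it.
Il17a: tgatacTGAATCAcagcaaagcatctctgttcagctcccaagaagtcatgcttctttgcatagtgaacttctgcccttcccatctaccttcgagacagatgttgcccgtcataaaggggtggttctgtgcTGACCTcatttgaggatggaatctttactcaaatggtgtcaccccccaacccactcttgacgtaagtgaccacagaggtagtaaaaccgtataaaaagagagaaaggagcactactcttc
Il17f: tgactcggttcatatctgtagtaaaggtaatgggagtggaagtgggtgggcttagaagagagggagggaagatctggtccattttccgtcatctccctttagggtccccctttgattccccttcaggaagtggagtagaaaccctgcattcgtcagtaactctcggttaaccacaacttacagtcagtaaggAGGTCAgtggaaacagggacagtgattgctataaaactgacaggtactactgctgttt

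The Il17a stretch holds an AGGTCA core on the reverse strand at position -120, counted from the RefSeq start site, and an AP-1 match at -244. That of Il17f holds an AGGTCA core at -58 and no AP-1 match in its 250 bases. TGACG, the core letters of a cAMP response element, occurs 2 times in each stretch, and no match overlaps an AGGTCA match. Promoter windows of 300 bases (250 before and 50 after the start) were held for 8 of the 9 members, all but Klrd1. AGGTCA occurred in those of Il17a, Il17f, Il23r and Ifng, 4 of 8, against 16.3% of all 32851 windows. TCACAC, the T-box core bound by T-bet and its relatives, occurred in those of Il17a, Gzmb and Nkg7, 3 of 8, against 14.5% of all windows. TGANTCA was found in 2 of 8 (Il17a and Gzmb, 7.81% of all), TTCNNNGAA, a STAT site, in 3 of 8 (8.3% of all), and TGACG in 4 of 8 (20.8% of all). GGAAA, the NFAT core, was found in 6 of 8 but also in 61.3% of all windows, and in Nkg7 it overlaps the STAT match. GATAA, the GATA core, was found in Il22 alone of the 8 (25.4% of all). Both strands were searched, and these matches describe letters, not binding.

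Before the members are described, the libraries need to be set against each other. The FPKM of a library added up to 394807.8 to 431013.8, and 12028 to 13401 gene models had a value above 0. Over the 9093 genes that average 1 FPKM or more across the 4 libraries, the IL-33 libraries correlated on log2(FPKM + 1) at r = 0.994 (Spearman 0.99), the Ang II libraries at r = 0.578 (Spearman 0.494), and libraries from different groups at 0.548 to 0.563, all across genes, which are not independent replicates. Among low genes (1 to 32 in FPKM times kilobases of exon), 0.968% of 3408 were listed at 0 in 1 IL-33 library only, against 41.3% of 5804 in the Ang II pair. Counting noise was estimated from how often low genes were listed at 0 in only 1 library of the IL-33 pair itself. The median squared difference between the IL-33 libraries was 1.65 times that noise, and that between the Ang II libraries was 227.0 times the same noise. The first ratio is therefore not independent of the libraries it describes. The IL-33 libraries thus differed by somewhat more than the estimated noise, and far less than the Ang II libraries did, and were counted as 1 sample in the test across genes. Of 18 ILC2 markers, 17 had a value above 0 in at least 1 library, and the sum of all 18 ran from 2372 to 2702 FPKM. Gata3, which encodes the master factor of type 2 lymphocytes, had 104.03 and 107.76 FPKM under IL-33 alone, compared to 185.24 and 129.81 FPKM under IL-33 plus Ang II, while Thy1 was under 0.1 FPKM in every library and Ptgdr2 was listed at 0 in all 4.

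Both IL-17 cytokine genes had clear values with Ang II and were at or near 0 without it. Il17a (chromosome 1, 20730905 to 20734496, plus strand, mm10, 3 exons) encodes the cytokine that recruits neutrophils through epithelial cells. Each IL-33 library had a listed 0, and the Ang II libraries had 37.91 and 16.64 FPKM. No fold is given against a group listed at 0. Il17f (chromosome 1, 20777146 to 20790617, minus strand, 3 exons) encodes the relative that pairs with IL-17A in a heterodimer. It read 0.06 and 0.07 FPKM in the IL-33 libraries and 48.16 and 30.41 FPKM in those with Ang II, a difference of 5.21 in log2(FPKM + 1), a scale that compresses differences of low genes. Library 1 was the higher of the Ang II libraries for both genes, and for both the groups did not overlap. Over all 9215 genes tested, both Ang II libraries lay above both IL-33 values for 24.4% and below them for 33.5%; nothing is read from this for the members, which were picked on the same contrast. Il17f exceeded Il17a in each Ang II library, by 1.27 times in library 1 and 1.83 times in library 2 on the FPKM scale. Among all gene models, Il17f ranked 1440 and 1917 by FPKM in the Ang II libraries and Il17a 1760 and 2981, while in the IL-33 libraries Il17f ranked 9508 and 9384. In bulk samples a change in the number of cells that make a transcript and a change in its amount per cell cannot be told apart.

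The same off-to-on pattern was counted over all genes. Of 7552 genes under 0.1 FPKM in both IL-33 libraries and above 0 in an Ang II library, 110 reached 10 FPKM in both Ang II libraries, or 1.46%. That base includes genes with only a trace in an Ang II library. The share is therefore not comparable with shares among genes of at least 10 FPKM. The genes whose values over the 4 libraries lay closest to those of Il17a, by Euclidean distance on log2(FPKM + 1), were Dipk2a (0.15), Ly9 (0.16) and Cenpl (0.17). The closest to Il17f were Araf (0.2), Tk2 (0.21) and the T cell receptor segment Trav15n-2 (0.25). In the genome, 42.6 kb separate Il17a from Il17f. Of 6 gene models within 100 kb of Il17a, only Il17f and Mcm3 reached 1 FPKM in a library. Mcm3, a replication licensing gene 12.4 kb from Il17f, had the opposite pattern at low level, with 1.75 and 1.48 FPKM with IL-33 and 0 and 0.02 FPKM with Ang II.

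**Figure D1:**
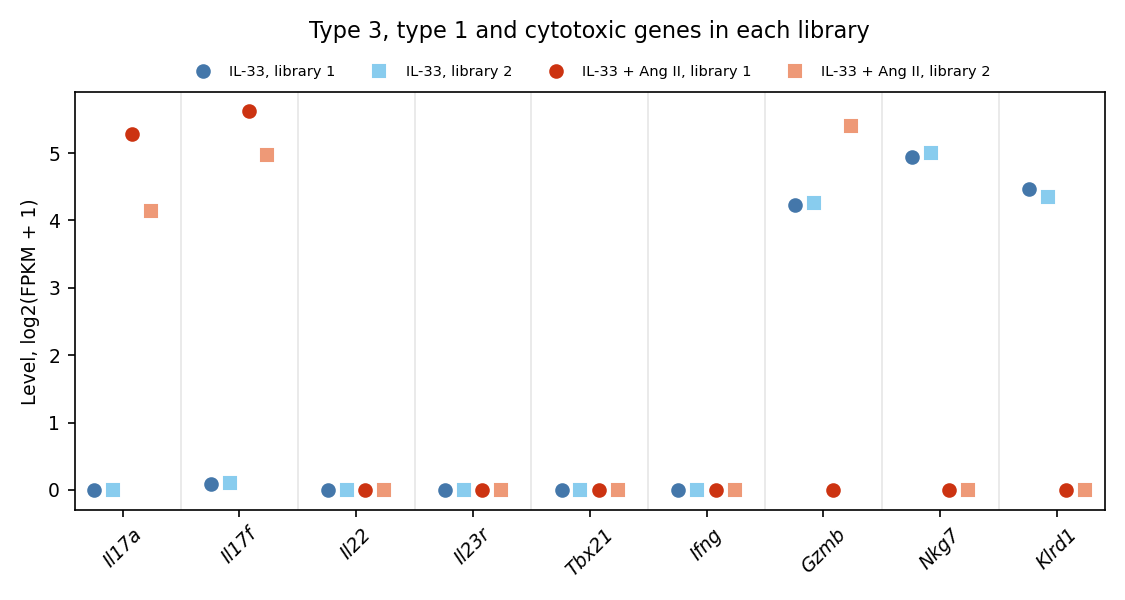
Level of the 9 genes in each library as log2(FPKM + 1); each point is 1 library, circles and squares are libraries 1 and 2, blue is IL-33 and red is IL-33 with Ang II. Il17a and Il17f are high in the Ang II libraries, Nkg7 and Klrd1 in the IL-33 libraries, Gzmb splits the Ang II libraries, and Il22, Il23r, Tbx21 and Ifng are listed at 0 in all 4.

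The other type 3 members had no value. Il22 (chromosome 10, 118204942 to 118210047, plus strand, 5 exons), whose product acts on epithelial barriers, was listed at 0 in all 4 libraries. So was its duplicate Iltifb, 79.6 kb away, with which it can share reads. Il23r (chromosome 6, 67422932 to 67491855, minus strand, 11 exons), which encodes the chain that makes the IL-23 receptor specific, was likewise listed at 0 in all 4, as was its partner chain gene Il12rb1. A listed 0 does not show absence, since the files give no counts. Of all gene models, 67.0% were listed at 0 in all 4 libraries.

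Ahr, Il1r1, Batf and Stat3, genes of type 3 regulation, did not separate the groups as Il17a and Il17f did. Other regulators of the type 3 list, named after their values were seen, did. Higher in both Ang II libraries were Maf and Nfkbiz, given below, and Runx1 (2.79 and 3.05 against 5.01 and 5.68 FPKM). Tox was lower in both (26.89 and 28.42 against 9.98 and 18.80 FPKM). Ahr, the aryl hydrocarbon receptor gene that IL-22 production depends on, was listed at 0 in all 4, and Il1r1, the IL-1 receptor gene, did not exceed 0.02 FPKM. Batf, an AP-1 family factor gene that IL-17 production in T cells needs, had 49.57 and 51.42 FPKM under IL-33 alone, compared to 192.60 and 39.90 FPKM under IL-33 plus Ang II, so that the groups overlapped. Stat3, which carries IL-23 and IL-6 signals, stood at 48.92 and 51.26 FPKM against 56.88 and 21.17 FPKM and also overlapped. The most abundant members of the type 3 list besides Batf were Cxcr6, a residency receptor (1222.98 and 1235.56 against 1042.40 and 1374.59 FPKM), Ltb, the lymphotoxin beta gene (185.97 and 180.28 against 248.42 and 201.88 FPKM), and Hif1a, the hypoxia factor gene (146.92 and 150.66 against 81.99 and 161.99 FPKM).

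In the list of 34 type 3 programme genes without the members, 17 had a mean of at least 1 FPKM and 6 were listed at 0 in all libraries. Of those 17, the Ang II libraries both lay above the IL-33 libraries for 5 and below them for 5, with a median log2 difference of -0.04. These shares were 24.4% and 33.5% over all 9215 genes tested, whose median was 0.0. None of the 17 reached an adjusted p under 0.05 by limma (Benjamini-Hochberg over all genes, smallest adjusted p = 0.174), and at an unadjusted p under 0.05 there were 2 higher and 1 lower. That test has 1 residual degree of freedom and recovered none of the changes planted in simulated data, so not passing it says nothing about whether a gene changed. In it 0.0% of the 9215 genes passed, against 2.79% higher and 10.8% lower at an unadjusted p under 0.05. Its residual spread comes from the Ang II pair alone. A gene listed at 0 in both Ang II libraries has no such spread, which lowers its p-value, and it can only count as lower. How much of the share of lower genes comes from listed zeros was not tested. Taking the IL-33 libraries as 2 replicates, limma called 486 genes higher (5.34% of 9095) and 1179 lower (13.0%), but that fit counts the near-identical IL-33 libraries as independent. Under it, 3 genes of the type 3 list passed as higher and 1 as lower. These, and the genes named from the same fit for the other lists, were chosen after their values were seen. Tmem176a, a membrane protein gene of type 3 cells, stood at 0.03 and 0 FPKM against 13.83 and 7.81 FPKM. Maf, a factor gene, stood at 0.18 and 0.14 against 9.81 and 9.93 FPKM, and Nfkbiz, which encodes the IkB-zeta cofactor, at 0.08 in both IL-33 libraries against 52.79 and 91.53 FPKM. Nrp1, the neuropilin gene, was the lower one, at 17.41 and 18.22 against 0 and 0.19 FPKM.

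**Figure D2:**
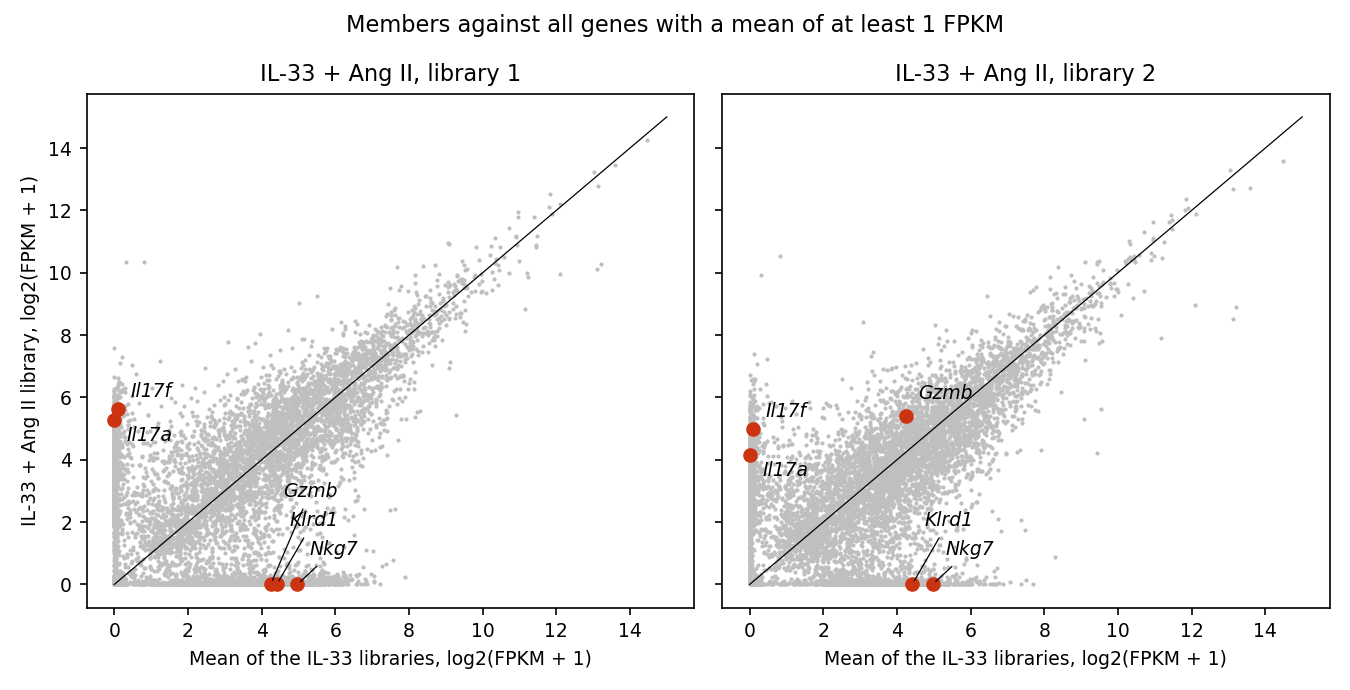
Each grey point is 1 of 9215 genes that average 1 FPKM or more, with the mean of the IL-33 libraries on the horizontal and 1 Ang II library on the vertical axis of each panel, both as log2(FPKM + 1); the line marks equal levels and red points are the 5 members tested. Il17a and Il17f lie on the left edge and Nkg7 and Klrd1 on the lower edge in both panels, among many other genes on those edges, while Gzmb lies on the lower edge for library 1 and above the line for library 2.

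Neither the type 1 regulator nor its cytokine had a value. Tbx21 (chromosome 11, 97098071 to 97115331, minus strand, 6 exons) and Ifng (chromosome 10, 118441046 to 118445892, plus strand, 4 exons) were listed at 0 in all 4 libraries. Eomes, the other T-box factor gene of NK cells, did not exceed 0.01 FPKM. The noncoding gene Ifngas1, which lies 56.1 kb from Ifng on the opposite strand, did have values, at 6.89 and 7.56 FPKM with IL-33, 18.04 FPKM in Ang II library 1 and 0 listed in library 2. The groups overlap for Ifngas1, and Ifng was listed at 0 also in the 3 libraries where Ifngas1 had values.

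Receptors that receive type 1 signals were partly present. Il12rb1 and Il12rb2, which encode the IL-12 receptor, were listed at 0 in all 4 libraries. Il18r1, the ligand-binding chain of the IL-18 receptor, stood at 10.03 and 10.00 FPKM under IL-33 alone and had a listed 0 in each Ang II library (limma adjusted p = 0.174). Il18rap, its signalling chain, had the opposite pattern, 0.11 and 0.19 FPKM under IL-33 alone, compared to 72.96 and 18.04 FPKM under IL-33 plus Ang II (log2 difference 5.03, SE 1.36, limma adjusted p = 0.457). The 2 chains of that receptor thus had values in different groups, without overlap. With IL-33 counted as 1 sample neither passed, and with both IL-33 libraries as replicates both did. The adjusted p-values of the 2 chains do not rank them, since Il18r1 had no spread between the Ang II libraries. Stat4, which carries the IL-12 signal, stood at 68.27 and 64.77 FPKM against 47.35 and 72.79 FPKM, and Runx3, a partner factor gene of T-bet, at 1.01 and 1.11 against 5.49 and 0.50 FPKM, both with overlap.

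Chemokine genes that type 1 cells release differed mainly between the Ang II libraries. Ccl3 read 622.64 and 613.11 FPKM in the IL-33 libraries and 41.91 and 652.82 FPKM in those with Ang II. Ccl4, a close relative, stood at 127.33 and 129.67 against 1.09 and 137.04 FPKM. For both, Ang II library 1 was low and library 2 lay above the IL-33 values. Ccl5 stood at 24.85 and 28.82 against 23.86 and 12.82 FPKM, and Xcl1 did not exceed 0.13 FPKM. The most abundant others of the type 1 list were Cxcr6, which the type 3 list also holds and whose groups overlapped, Ifngr1, the interferon gamma receptor gene (492.73 and 503.64 against 483.08 and 309.84 FPKM), and Il2rb, which encodes a chain of the IL-2 and IL-15 receptors (302.67 and 304.45 against 316.20 and 309.05 FPKM).

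Of 32 genes in the type 1 list, 24 had a mean of at least 1 FPKM, and the Ang II libraries both lay above the IL-33 libraries for 7 and below them for 8, with a median log2 difference of -0.11. Over all genes tested 24.4% lay above and 33.5% below, with a median of 0.0. None passed the adjusted threshold of limma with IL-33 as 1 sample, and 1 was higher and 1 lower at an unadjusted p under 0.05 (2.79% and 10.8% of all genes). With both IL-33 libraries as replicates, 4 genes passed as higher, Hopx, Il18rap and Tnfsf10 among them, and Il18r1 passed as lower (5.34% and 13.0% of all genes). Tnfsf10, the gene of the death ligand TRAIL, had a listed 0 in each IL-33 library, compared to 5.57 and 5.92 FPKM under IL-33 plus Ang II.

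**Figure D3:**
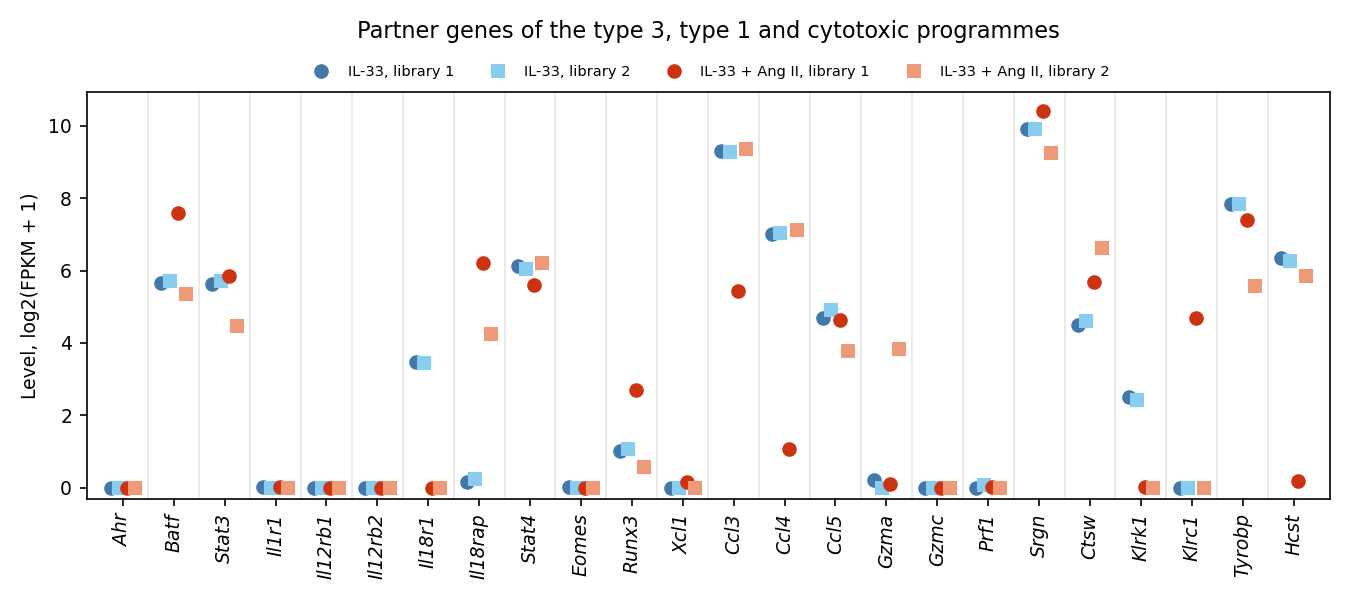
Level of 24 partner genes of the members in each library as log2(FPKM + 1), with symbols as in the plot of the 9 genes. Il18r1 and Klrk1 have values with IL-33 and are at or near 0 with Ang II, Il18rap is high with Ang II, and Ccl3, Ccl4 and Hcst are low in Ang II library 1 alone.

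The cytotoxic members differed in pattern from the IL-17 genes and from each other. Nkg7 (chromosome 7, 43437073 to 43438249, plus strand, 4 exons), which encodes a granule membrane protein of killer lymphocytes, stood at 29.88 and 30.91 FPKM under IL-33 alone and had a listed 0 in each Ang II library. Klrd1 (chromosome 6, 129591782 to 129598775, plus strand, 7 exons), which encodes CD94, the shared chain of NKG2 receptors, stood at 21.14 and 19.44 FPKM and likewise had a listed 0 in each. Gzmb (chromosome 14, 56258838 to 56262260, minus strand, 5 exons), which encodes the protease granzyme B, stood at 17.83 and 18.11 FPKM with IL-33, was listed at 0 in Ang II library 1 and stood at 41.28 FPKM in library 2. For Nkg7 and Klrd1 the groups did not overlap, and for Gzmb the Ang II libraries lay on either side of the IL-33 values. The difference of Gzmb was -1.54 on the log2(FPKM + 1) scale over both Ang II libraries and 1.16 without Ang II library 1, so that its direction rests on that library.

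Among the 4045 genes with at least 10 FPKM in both IL-33 libraries, 4.2% had a listed 0 in each Ang II library, as Nkg7 and Klrd1 did. A listed 0 in library 1 alone was found for 5.96% of them and in library 2 alone for 4.2%. The Gzmb pattern, with 0 in 1 Ang II library and a value above both IL-33 values in the other, was found for 2.08%. In the IL-33 libraries Nkg7 ranked 2042 and 2000 by FPKM among all gene models, Klrd1 2659 and 2820, and Gzmb 2963 and 2954. The closest patterns to Nkg7 were those of Snord49a (0.03), Cfb (0.06) and Syngr3 (0.06), to Klrd1 those of Pmp22 (0.02), Ppm1j (0.02) and Edc4 (0.06), and to Gzmb those of Commd5 (0.16), Abhd16a (0.19) and Ltv1 (0.23).

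The rest of the killing machinery was measured unevenly. Prf1, which encodes perforin, did not exceed 0.05 FPKM in any library, and Gzmc, the granzyme gene beside Gzmb, was listed at 0 in all 4. Each of the 11 gene models within 100 kb of Gzmb was listed at 0 in every library. Gzma, which encodes granzyme A, had 0.17 and 0 FPKM under IL-33 alone, compared to 0.07 and 13.33 FPKM under IL-33 plus Ang II, high in the same library as Gzmb. Srgn, the proteoglycan core of granules, stood at 950.08 and 954.12 against 1345.82 and 603.71 FPKM, and Ctsw, a protease gene of killer lymphocytes, at 21.48 and 23.57 against 50.04 and 97.80 FPKM (log2 difference 1.59, SE 0.68, limma adjusted p = 0.67). The groups overlap for Srgn and do not for Ctsw.

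Of 25 genes in the cytotoxic list, 24 were found and 11 had a mean of at least 1 FPKM. The Ang II libraries both lay above the IL-33 libraries for 5 of these 11 and below them for 2, with a median log2 difference of 1.11, but of -0.02 for its genes that average 5 FPKM or more. The shares over all genes tested were 24.4% above and 33.5% below, with a median of 0.0. None passed the adjusted threshold of limma with IL-33 as 1 sample, and at an unadjusted p under 0.05 there were 1 higher and 1 lower, against 2.79% and 10.8% of all genes. Besides Srgn, the most abundant were Serpinb9, a granzyme B inhibitor (257.76 and 257.18 against 183.92 and 312.96 FPKM), Vamp8 (145.97 and 144.58 against 102.80 and 86.18 FPKM) and Lamp1 (52.98 and 50.29 against 36.54 and 71.05 FPKM), genes of vesicle fusion and of the lysosome membrane. With both IL-33 libraries as replicates 1 gene passed as higher and 1 as lower, against 5.34% and 13.0% of all genes. Both are genes of granule release whose products bind each other. Stx11, the syntaxin 11 gene, stood at 0.19 and 0.21 against 41.95 and 49.27 FPKM. Stxbp2, the gene of the Munc18-2 protein, stood at 61.75 and 61.80 against 0.22 and 0.12 FPKM.

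Klrd1 lies in the NK gene complex, some of whose products pair with each other on the cell surface. CD94 reaches the surface as a heterodimer with an NKG2 chain, such as the inhibitory NKG2A that Klrc1 encodes. Klrc1, 67.2 kb from Klrd1, had a listed 0 in each IL-33 library and in Ang II library 2, and stood at 24.94 FPKM in Ang II library 1. Klrd1 and Klrc1 thus had values in different libraries, and none of the 4 had both. Klrk1, 11.5 kb from Klrd1 and the gene of the activating receptor NKG2D, read 4.71 and 4.41 FPKM in the IL-33 libraries and 0.01 and 0 FPKM in those with Ang II, the same side as Klrd1 (limma adjusted p = 0.174). Its adaptor gene Hcst stood at 79.83 and 75.26 against 0.15 and 56.38 FPKM, and the adaptor gene Tyrobp at 229.14 and 227.75 against 168.65 and 46.23 FPKM. Klrc2 did not exceed 0.02 FPKM, and Klre1, Klrc3 and Klri1 were listed at 0 in all 4 libraries.

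**Figure D4:**
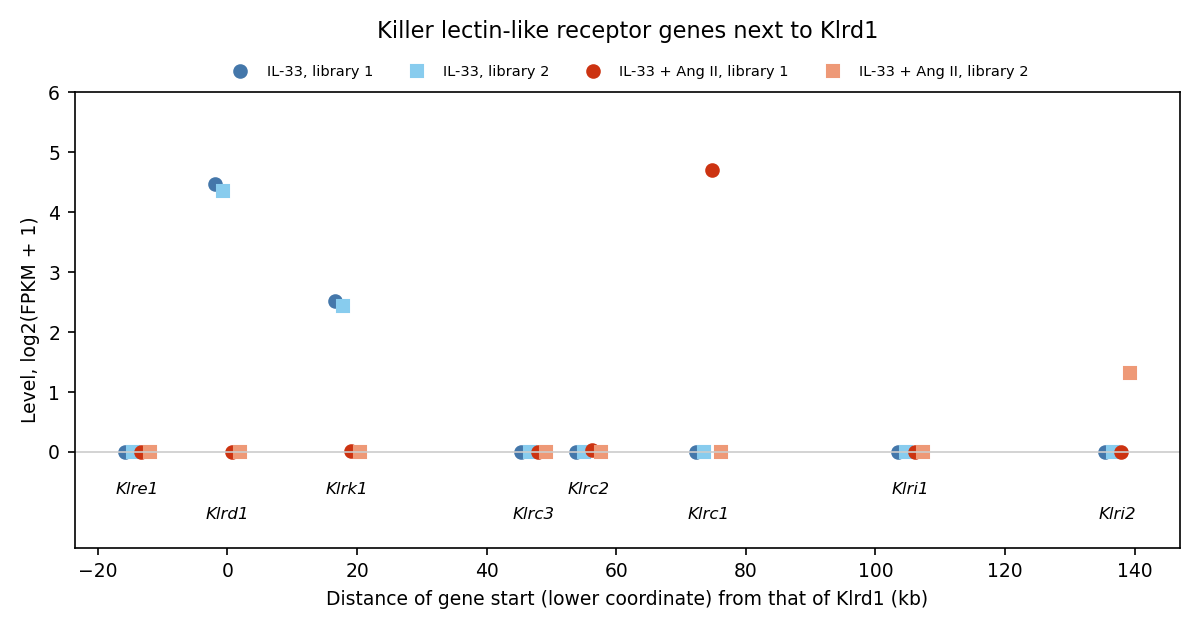
Level, as log2(FPKM + 1), of 8 killer lectin-like receptor genes against the distance of each gene's lower coordinate from that of Klrd1 in kb, with symbols as in the plot of the 9 genes and points of a gene set slightly apart. Klrd1 and Klrk1 have values in the IL-33 libraries and are at or near 0 with Ang II, Klrc1 in Ang II library 1 only, and Klri2 in Ang II library 2 only.

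In the NK receptor list, 29 of 30 genes were found, 14 of them were listed at 0 in all libraries and 10 had a mean of at least 1 FPKM. The Ang II libraries both lay above the IL-33 libraries for 1 of the 10 and below them for 4, against 24.4% and 33.5% of all genes tested, with a median log2 difference of -0.31 against 0.0. None passed the adjusted threshold of limma with IL-33 as 1 sample, with 1 higher and 1 lower at an unadjusted p under 0.05 (2.79% and 10.8% of all genes). With both IL-33 libraries as replicates, Fcgr3 passed as higher and Fcer1g and Klrk1 as lower (5.34% and 13.0% of all genes). Fcer1g, a signalling adaptor gene that myeloid cells share, was the most abundant, at 336.34 and 334.22 against 200.99 and 189.61 FPKM. Fcgr3, an Fc receptor gene that macrophages express too, stood at 0.43 and 0.46 against 38.67 and 55.51 FPKM.

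Several cell types other than ILC2s make the transcripts described here. Of 14 NK cell markers, Ncr1, Klrb1c, Klra7, Klra8, Klra9 and Klre1 were listed at 0 in every library. These are 6 of 14, against 67.0% of all gene models. Only 2 of the 14, Gzma and Fcgr3, had a mean of at least 1 FPKM. Gzma reached 13.33 FPKM in Ang II library 2, the library where Gzmb stood at 41.28 FPKM. The summed NK markers stood at 0.61 and 0.68 FPKM under IL-33 alone, compared to 38.8 and 68.9 FPKM under IL-33 plus Ang II, most of it Fcgr3. Of 12 T cell markers with a mean of at least 1 FPKM, 11 had both Ang II libraries below the IL-33 values and 0 had both above, where all genes tested gave 33.5% and 24.4%. The sum of all 14 was 1423 and 1420 FPKM under IL-33 alone, compared to 1074 and 473 FPKM under IL-33 plus Ang II. They stood on the same side as Nkg7 and Klrd1 and on the opposite side to Il17a and Il17f. Of the gamma delta T cell markers 6 of 10 were found. Trdv4 stood at 259.84 and 257.63 against 229.57 and 481.28 FPKM, Trdc at 4.98 and 4.40 against 0.03 and 3.59 FPKM, and Sox13 and Cd163l1, which mark those that make IL-17, were listed at 0 in all 4. Of the ILC3 markers that are no members, Ccr6 was listed at 0 in 3 libraries and stood at 0.87 FPKM in Ang II library 2. Il1r1 did not exceed 0.02 FPKM, and Tmem176b stood at 60.28 and 59.73 against 50.71 and 113.24 FPKM, with overlap. Tmem176a, at 0.03 and 0 against 13.83 and 7.81 FPKM, was higher in both Ang II libraries, as were 24.4% of all genes tested. Of 5 macrophage markers with a mean of at least 1 FPKM, 1 was higher and 3 were lower in both Ang II libraries (24.4% and 33.5% of all genes tested), and the sum of 8 stood at 2086 and 2051 against 2034 and 916 FPKM. Of 5 B cell markers, 1 (Cd79b, at 14.58 and 11.89 against 50.52 and 0.28 FPKM) had a mean of at least 1 FPKM, and the sum stood at 17.3 and 14.6 against 52.0 and 1.92 FPKM. The part of NK cells, T cells and macrophages in the levels of the members was not tested.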

How the data were processed

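RNA-seq was made from amplified cDNA of 500 lung ILC2s per library, per the labels' protocols. The authors deposited 1 FPKM value per gene and library, per the file headers, rounded to 2 decimals. In their processing notes the submitters name HISAT, StringTie, edgeR and mm10, with no version or role. Low values show no whole-read steps, so counts were not recovered and the depth is unknown. Amplification from few cells can lose or multiply single transcripts, and no molecular identifiers are named.

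Gene identifiers were matched to GENCODE M21 (GRCm38, the assembly of mm10), with 55141 of 55401 found. Genes that average 1 FPKM or more were tested on log2(FPKM + 1) with limma 3.58.1 in R 4.3.3 (eBayes with a trend), two-sided, with Benjamini-Hochberg adjustment at 0.05. The IL-33 libraries were averaged into 1 sample, which is assumed to vary as the Ang II libraries do, leaving 1 residual degree of freedom. The design allowed this if they differed by no more than sampling noise. The estimate of 1.65 times that noise is above it, so the condition was not strictly met. Read strictly, the design called for the fit of 2 against 2. Averaging was nonetheless kept because the estimate rests on approximate transcript lengths. The fit of 2 against 2, which makes 1665 calls against 0, is given beside it. The estimate is a median over genes, chosen after a mean was seen to rest on a few genes. With IL-33 as 1 sample, p-values weigh a difference against the spread between the Ang II libraries alone, which may be technical. The test was checked on simulated data, where with 1 residual degree of freedom it recovered none of the planted changes at the adjusted threshold, so a gene that did not pass is not shown to be unchanged.

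The members, the lists and the rule for named genes were chosen with earlier results of these data known. By that rule the text names the members, fixed partner genes, the 4 most abundant genes of each list, genes within 100 kb of a member and the 3 nearest patterns, with numbered gene models and clone names left out of the last. The levels of 0.1 and 10 FPKM used to count like patterns were set after the data were seen. Alternatives were the pseudocount, the filter, scaling, the replicate block and leaving out each library. Some genes of the lists are counted in them but are not reported here by name.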

Additional observations from a re-analysis of the deposited data

How the results depend on the processing

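Taking the IL-33 libraries as 2 replicates, limma called 1665 genes, against 0 in the reported fit; under the 8 other alternatives run, which included a pseudocount of 0.1 FPKM, no filter, a mean of at least 5 FPKM, both scalings and leaving out an IL-33 library, it called 0. With the replicate block, in the fit of both IL-33 libraries as replicates, 0 genes passed (smallest adjusted p = 0.106). Deviations of same-numbered libraries did not correlate (r = -0.018 across genes). The IL-33 libraries differed too little for this to show whether same-numbered libraries were paired. Leaving out an Ang II library leaves 1 column a group and no test.

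For Il17a, Il17f, Nkg7 and Klrd1 the values that chose them fix the direction, so the alternatives do not test it. The log2 difference of Gzmb ran from -4.25 without Ang II replicate 2 to 1.16 without Ang II replicate 1. Without 1 library each, the type 3 list had 5 to 10 genes higher, 5 to 8 lower and a median of -0.05 to 0.13. The type 1 list had 7 to 13 higher, 8 to 13 lower and a median of -0.16 to 0.09. The cytotoxic list had 5 to 7 higher, 2 to 4 lower and a median of 0.71 to 1.13. The NK receptor list had 1 to 4 higher, 4 to 5 lower and a median of -0.44 to -0.29. The highest counts come from leaving out an Ang II library, where 1 library in place of 2 has to lie outside the IL-33 values. With a mean of at least 5 FPKM the type 3 median was 0.06 and the cytotoxic median -0.02. On the TPM scale, which moved the median of all genes from -0.004 to 0.162, the type 3 median was 0.29 and the NK receptor median 0.01. With no filter the cytotoxic median was 0.23 and the NK receptor median -0.01, and with a pseudocount of 0.1 FPKM the latter was -0.42. For these medians the cause was not tested. Unknown depth limits what a listed 0 can show.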

Other observations

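Among genes of the type 1 list, chosen after their values were seen, Cxcr3, a homing receptor gene that T-bet drives in T cells, stood at 203.70 and 210.14 FPKM with IL-33, at 23.80 FPKM in Ang II library 1 and was listed at 0 in library 2. Bhlhe40, a factor gene that cytokine output of lymphocytes depends on, had 24.48 and 25.89 FPKM under IL-33 alone, compared to 88.66 and 187.39 FPKM under IL-33 plus Ang II. Il27ra, the IL-27 receptor gene, was listed at 0 in 3 libraries and stood at 17.26 FPKM in Ang II library 2. Cd69, an activation marker gene of the same NK gene complex as Klrd1, read 18.36 and 16.87 FPKM in the IL-33 libraries and 162.85 and 128.49 FPKM in those with Ang II, the opposite side to Klrd1.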
